A study of Macaca mulatta with 10 samples.

Results

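Potassium, sodium and calcium channel genes were followed through the differentiation of rhesus macaque embryonic stem (ES) cells. The genes were chosen by name alone, as all genes whose annotated symbol starts with KCN, with SCN followed by a digit, with SCNN or with CACN. Of the 13191 named genes on the array, 98 met that rule, and 145 probe sets measured them. The RefSeq table of the macaque assembly T2T-MMU8v2.0 lists 139 symbols of this kind, so 41 of them, such as SCN1A, SCNN1G and CACNA1A, were not analysed here. The 98 genes comprise 27 pore subunits and 11 auxiliary subunits of voltage-gated potassium channels, 12 inward rectifiers, 11 two-pore-domain channels and 10 genes of calcium- or sodium-activated potassium channels. The sodium channels have 7 voltage-gated pore subunits, 1 beta subunit and 2 epithelial subunits, and the calcium channels have 6 pore, 3 alpha-2-delta, 3 beta and 5 gamma subunits.

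Ion channels let chosen ions cross the cell membrane along their gradients. Potassium channels hold the resting voltage of a cell near the potassium equilibrium and end electrical impulses. Voltage-gated sodium channels start the impulse in nerve and muscle, whereas epithelial sodium channels take up salt across cell sheets. Voltage-gated calcium channels turn a voltage change into calcium entry, which drives secretion, contraction and gene expression. In most families the pore subunits are joined by auxiliary subunits that set their gating and their delivery to the membrane.

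RNA came from a single macaque ES cell line, ORMES6, hybridised to 10 Affymetrix rhesus macaque arrays, 2 for each of 5 groups. Undifferentiated ES cells (ES) had been grown on mouse embryonic fibroblasts with serum replacement and basic fibroblast growth factor, and are the control of the other groups. To bring about hepatic foci, the ES cells were grown together with hESdF, which are human ES cell derivatives resembling fibroblasts, and cells were taken at in vitro differentiation stages 2 and 3 (IVDS2 and IVDS3). At stage 2 the central foci of the colonies (IVDS2-C) and their periphery (IVDS2-P) were also collected separately. No label says whether the 2 arrays of a group came from separate cultures, so p-values measure only the spread between these arrays, which may be technical. The feeders are mouse fibroblasts and the hESdF are human, and their transcripts can bind the macaque probes. In bulk RNA of this kind, fewer cells of a type and less RNA per cell cannot be told apart.

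Every value below is a log2 expression value that had been centred, before deposit, on the median of its probe set over the 10 arrays. A value of 0 is thus the middle of the 10 arrays for that gene, values of different genes cannot be set against each other, and no absolute level can be read. A gene was called where limma's moderated test gave a Benjamini-Hochberg adjusted p under 0.05 over all 13191 genes. The median of the channel genes was 0.00 on ES replicate 1 and 0.20 on ES replicate 2, and 73 of the 98 stood higher on ES replicate 2, or 74.5% against 53.9% of all genes. In the other 4 groups 35 to 51 channel genes stood higher on replicate 2. Most markers of pluripotent cells followed the labels: 6 of the 7 measured were lower at IVDS3 than in ES cells. The array medians of the 7 were -2.93 and -2.87 at IVDS3 against 1.72 and 1.94 in ES cells. NANOG went the other way and was called higher, at 0.47 and 0.41 at IVDS3 against -0.70 and -1.37 in ES cells. In IVDS2-P, 1 of the 7 was called higher than in ES cells, 1 lower and 5 not at all. Of 8 measured hepatocyte markers, 1 was higher and 3 were lower at IVDS3.

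At IVDS3, 37 of the 98 channel genes differed from ES cells, 14 of them higher and 23 lower. That is 37.8% of the channel genes, against 49.7% of all genes (21.1% higher and 28.6% lower). At stage 2 the central foci had 10 channel genes higher and 18 lower than ES cells, 28.6% against 30.1% of all genes (13.7% higher and 16.5% lower). The periphery had 5 higher and 9 lower, 14.3% against 11% (6.31% higher and 4.67% lower). Whole IVDS2 had 3 higher and 7 lower, 10.2% against 12.7% (6.5% higher and 6.23% lower). IVDS2-C had 6 genes higher and 7 lower than IVDS2-P, 13.3% against 9.59% (5.64% higher and 3.95% lower). IVDS3 had 14 higher and 17 lower than IVDS2, 31.6% against 39.7% (17.6% higher and 22.2% lower). The share of channel genes called was thus near that of all genes or below it, though 3 to 4 percentage points above it in IVDS2-P and between the 2 colony regions. The 4 comparisons with ES cells share the ES arrays, so their counts are not independent of each other.

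These counts depended on single arrays. The number of genes lower than in ES cells grew without ES replicate 1, to 36 at IVDS3, 25 in IVDS2-C, 19 in IVDS2-P and 12 in IVDS2. It shrank to 15 without IVDS3 replicate 2, to 9 without IVDS2-C replicate 2, to 1 without IVDS2-P replicate 2 and to 3 without IVDS2 replicate 2. Without ES replicate 2 it was 11 in IVDS2-C and 4 in IVDS2-P, and without IVDS2 replicate 1 it was 4 in IVDS2. Rises were steadier at IVDS3, with 11 to 14 whichever array was left out. In IVDS2-C they numbered 6 without IVDS2-C replicate 2. In IVDS2-P they numbered 2 without IVDS2-P replicate 2 and 3 without ES replicate 2, and in IVDS2 1 without IVDS2 replicate 1. Of the calls themselves, 25 of 37 at IVDS3, 14 of 28 in IVDS2-C, 3 of 14 in IVDS2-P and 4 of 10 in IVDS2 held whichever array was left out.

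**Figure D1:**
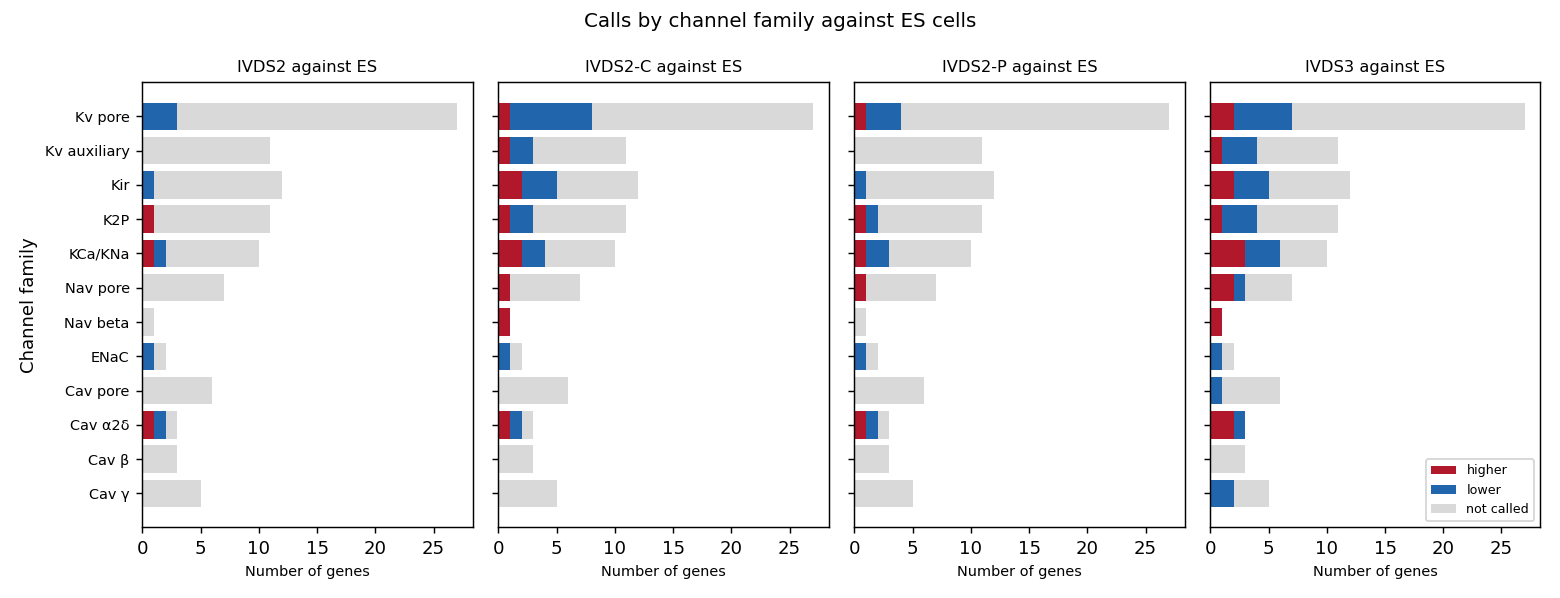
Number of channel genes called higher or lower at IVDS3 than in ES cells, for each channel family. Rises and falls occur side by side in most families, with 14 rises and 23 falls in all.

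Over the whole set, 47 channel genes (48%) were called in at least 1 comparison, against 60.1% of all genes, and 51 in none. Against ES cells, 8 (8.16%, against 5.44% of all genes) were called in all 4 groups. KCND2, KCNG3, KCNS3, KCNJ8, KCNN1, SCNN1A and CACNA2D2 were lower in each, and CACNA2D4 was higher in each. Of these 8 genes only KCNJ8 kept all its calls against ES cells whichever array was left out. Each of the others lost at least 1 such call, and the arrays concerned are named with each gene. A further 12 genes (12.2%, against 22.2% of all genes) were called at IVDS3 and in none of the stage 2 groups. SCN2A, SCN8A, KCNA2 and KCNN2 kept this call whichever array was left out. The others, KCNIP1, KCNK12, KCNK13, KCNMB3, CACNA1F, CACNA2D1, CACNG1 and CACNG7, each lost it on leaving out at least 1 array. Conversely, 5 genes (5.1%, against 6.22% of all genes) were called in a stage 2 group and not at IVDS3: KCNH5, KCNQ1, KCNK10, KCNK17 and KCNN4. Of these, the IVDS2-C calls of KCNH5, KCNQ1, KCNK17 and KCNN4 were lost without ES replicate 2, with adjusted p of 0.118, 0.207, 0.184 and 0.118, or without IVDS2-C replicate 2, with 0.0789, 0.146, 0.1 and 0.135. Those of KCNH5, KCNQ1 and KCNK17 were also lost without IVDS2-C replicate 1, with 0.16, 0.153 and 0.175, and without arrays of other groups, with 0.0519 to 0.0702. The group mean was highest in ES cells for 52 of the 98 genes (53.1%, against 37.3% of all genes) and at IVDS3 for 19 (19.4% against 25.6%). ES replicate 2 was the highest of the 10 arrays for 47 channel genes and ES replicate 1 for 6. Without ES replicate 2 the number highest in ES cells was 33 (33.7%, against 32.2% of all genes), and without ES replicate 1 it was 58 (59.2% against 39.6%), an alternative chosen after seeing the data. The mean was lowest at IVDS3 for 35 genes (35.7% against 39.1%) and in IVDS2-P for 29 (29.6% against 18%). At IVDS3 the median log2 difference from ES cells was -0.17 over the channel genes and -0.13 over all genes, and the median absolute difference was 0.30 against 0.39.

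Some of the calls were at least 2-fold. At IVDS3 against ES cells 9 channel genes were both called and at least 2-fold higher and 9 at least 2-fold lower, 9.18% each way, against 10.6% and 8.81% of all genes. In IVDS2-C 6 were higher and 7 lower (6.12% and 7.14%, against 5.91% and 3.62% of all genes). In IVDS2-P 2 were higher and 4 lower (2.04% and 4.08%, against 2.57% and 1.33%), and in IVDS2 2 and 3 (2.04% and 3.06%, against 2.93% and 1.96%). Between centre and periphery 5 were higher and 3 lower (5.1% and 3.06%, against 3.19% and 0.97%). Between IVDS3 and IVDS2 7 were higher and 2 lower (7.14% and 2.04%, against 8.22% and 6.16%). These shares rest on at most 9 channel genes each. The arrays of the compared groups did not overlap in 66 of the 98 channel genes for IVDS3 against ES cells, where 74.2% of all genes did not. The same number was 55 for IVDS2-C (65.8% of all genes), 55 for IVDS2-P (57.2%), 43 for IVDS2 (50.2%) and 68 for IVDS3 against IVDS2 (74.7%).

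**Figure D2:**
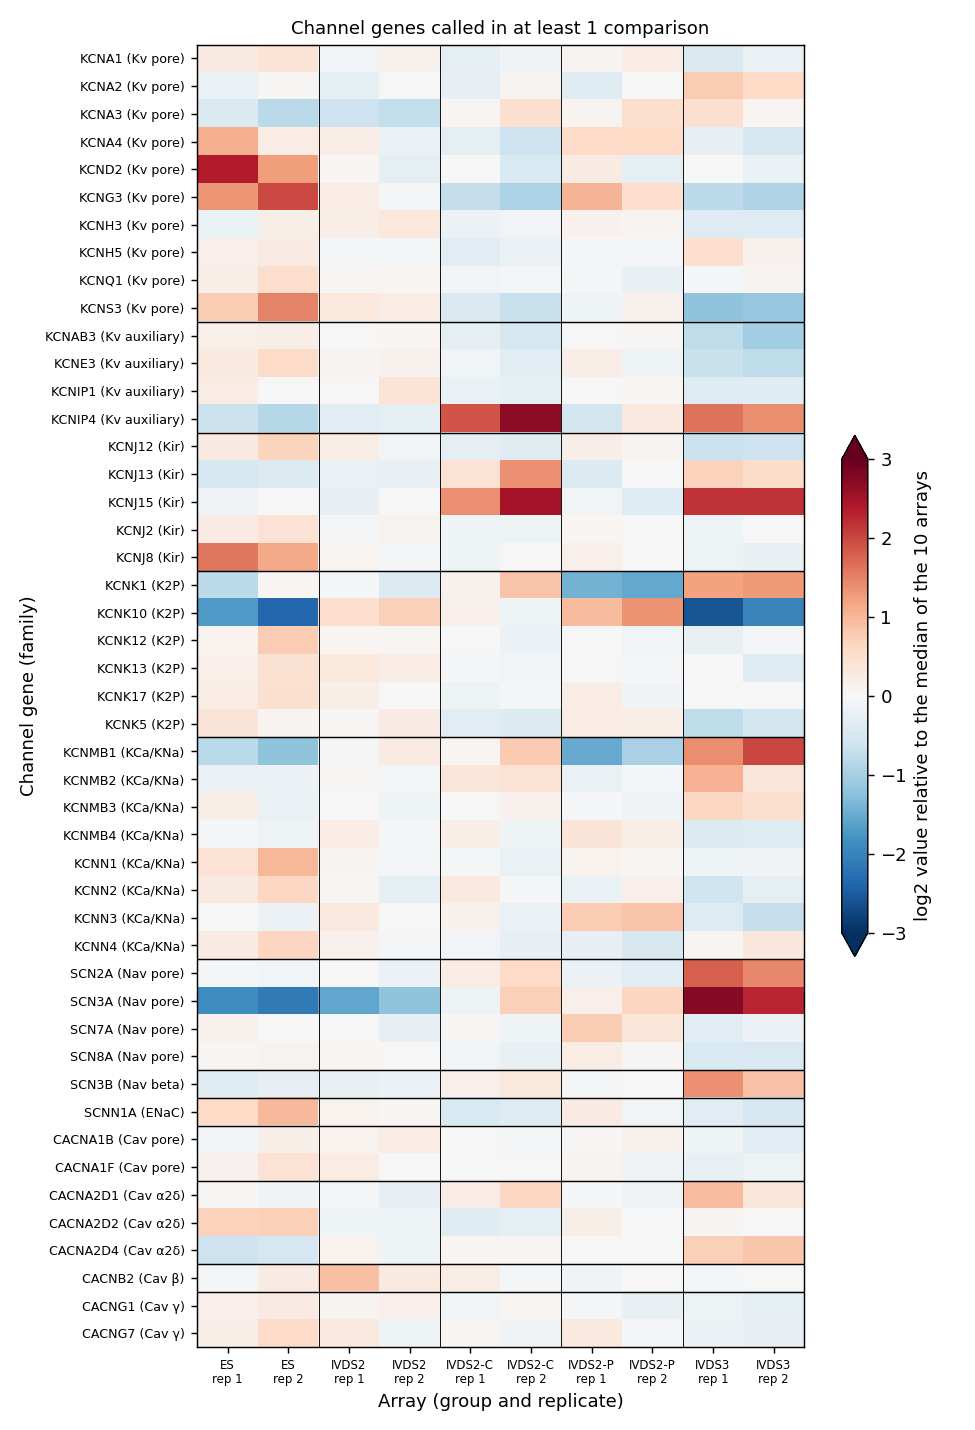
Centred log2 expression of the 47 channel genes called in at least 1 comparison (rows, by family) on the 10 arrays (columns, by group). Colour runs with the distance from each gene's median over the arrays, and KCNK10 is the row with low values in ES cells and at IVDS3 and higher values in the stage 2 groups.

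Among the voltage-gated sodium channels, forms known from brain had the largest differences. Of 7 pore subunits measured, 2 were higher, 1 was lower and 4 were not called at IVDS3 against ES cells. That is 42.9% called, against 49.7% of all genes. SCN3A encodes a pore subunit best known from the developing brain. It read -1.88 and -2.11 in ES cells, -1.57 and -1.21 in IVDS2, -0.15 and 0.72 in IVDS2-C, 0.15 and 0.65 in IVDS2-P, and 2.72 and 2.29 at IVDS3. Both IVDS3 arrays lay above every other array, and the ES arrays lay below all others. The rise at IVDS3 was 4.50 ± 0.29 on the log2 scale (SE, n = 2 arrays a group, limma adjusted p = 6.33e-06), or 22.7-fold, the largest log2 difference of any channel gene in the 6 comparisons. SCN3A was also 2.28 ± 0.29 higher in IVDS2-C (adjusted p = 0.000688) and 2.39 ± 0.29 higher in IVDS2-P (adjusted p = 0.00227) than in ES cells. In whole IVDS2 it was not called, and both IVDS2 arrays lay below every array of the centre and the periphery. The reason was not tested.

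SCN2A, the pore subunit of the axon initial segment in brain neurons, showed a later course. Its values were -0.03 and -0.09 in ES cells, -0.00 and -0.17 in IVDS2, 0.23 and 0.59 in IVDS2-C, -0.18 and -0.31 in IVDS2-P, and 1.80 and 1.44 at IVDS3. The IVDS3 arrays stood clear of the rest, with a rise over ES cells of 1.68 ± 0.16 (adjusted p = 4.38e-05). Its 2 probe sets differed in size, with a log2 rise of 2.95 on one and of 0.40 on the other, which was not called over all probe sets (adjusted p = 0.0822). The beta subunit SCN3B, which modulates such pores, followed at -0.37 and -0.25 in ES cells, -0.22 and -0.18 in IVDS2, 0.15 and 0.33 in IVDS2-C, -0.03 and 0.01 in IVDS2-P, and 1.37 and 0.87 at IVDS3. It rose by 1.43 ± 0.16 (adjusted p = 0.000104), and its 3 probe sets gave 1.81, 1.88 and 0.59. Neither IVDS3 array of SCN3B overlapped the other groups.

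SCN8A, the sodium channel of nodes of Ranvier, was lower. It was -0.45 and -0.46 at IVDS3 against 0.06 and 0.11 in ES cells, a difference of -0.54 ± 0.11 (adjusted p = 0.00336). Only 1 of the 2 probe sets of SCN8A was called at IVDS3 over all probe sets. The muscle form SCN4A (-0.15 ± 0.12), the sensory neuron forms SCN9A (-0.17 ± 0.14) and SCN10A (-0.04 ± 0.11) and the atypical SCN7A (-0.30 ± 0.16) were not called there. SCN3A and SCN2A are direct neighbours in the RefSeq gene order. SCN9A lies on the same macaque chromosome beside SCN1A, which was not analysed here.

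Markers of other cell types moved beside these sodium channels. Of 14 neuron markers listed, 6 were measured, and at IVDS3 4 were higher and 1 was lower than in ES cells. Among them STMN2 was 5.67 higher and ELAVL4 3.09 higher, while SYT1 fell by 1.93 at IVDS3. The median of the 6 was -0.69 and -1.01 in ES cells, -0.68 and -0.98 in IVDS2, 0.17 and 0.71 in IVDS2-C, -0.27 and 0.18 in IVDS2-P, and 0.83 and 0.45 at IVDS3. All 8 measured markers of stratified epithelium were higher at IVDS3, with medians of 3.25 and 2.93 against -0.60 and -0.79 in ES cells. Of 10 measured fibroblast markers 6 were higher and 2 lower at IVDS3. Among all genes, 21.1% were higher and 28.6% lower there. The part of these cell types in the channel results was not tested, and centred values do not show which markers were undetected.

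**Figure D3:**
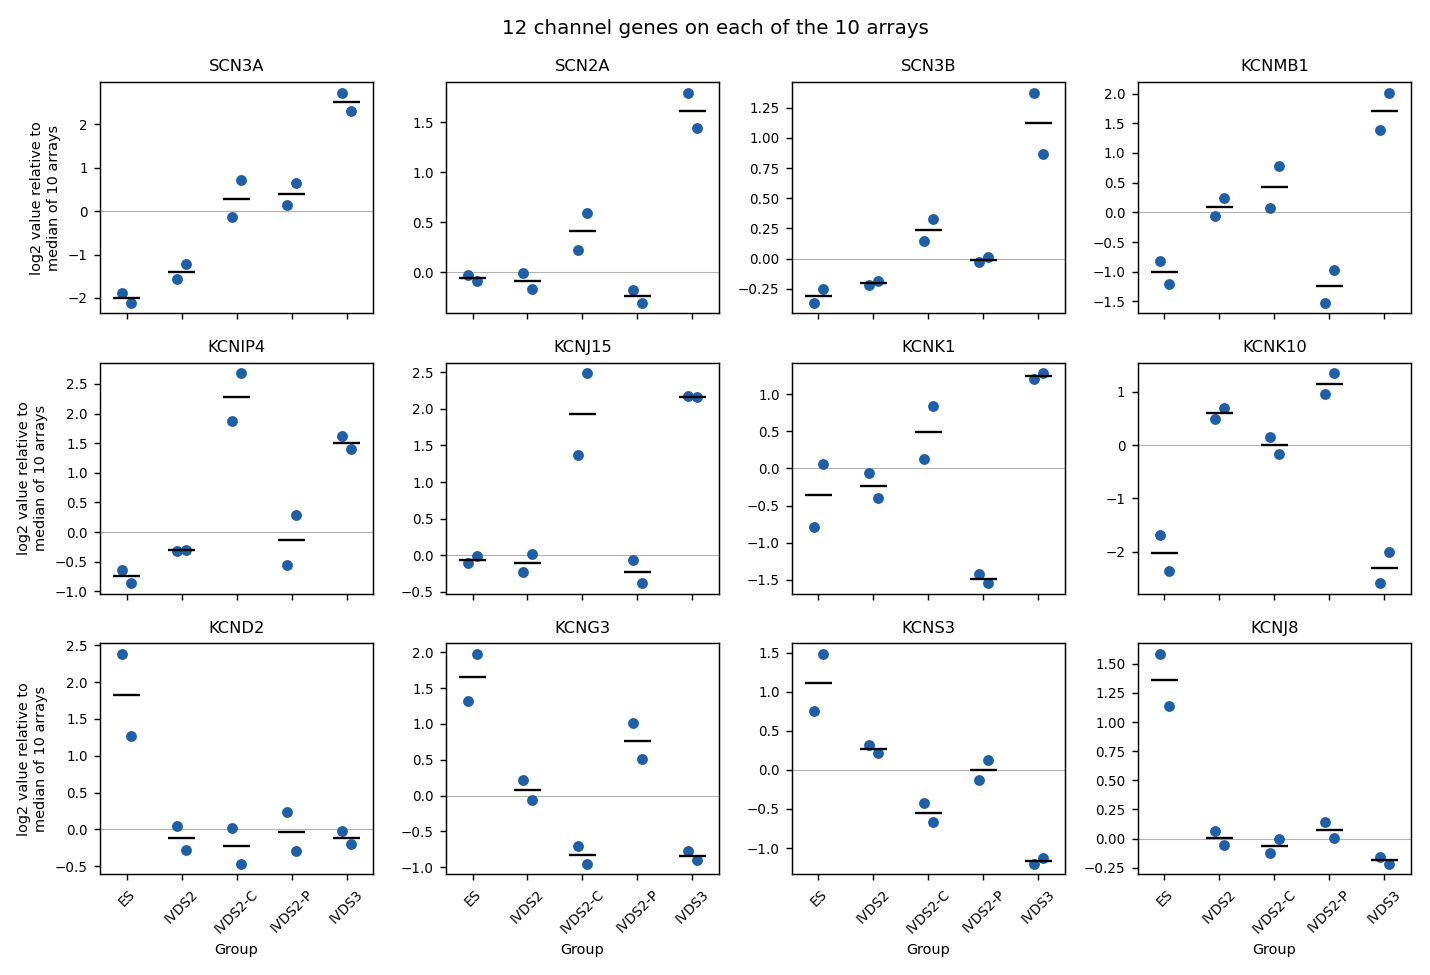
Centred log2 expression of selected channel genes on each of the 10 arrays, by group, with each point 1 array and each bar a group mean. SCN3A climbs to 2.72 and 2.29 at IVDS3, KCNK10 peaks in the stage 2 groups, and KCNG3 and KCNS3 are highest in ES cells.

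Most pore subunits of voltage-gated potassium channels were not called at IVDS3. Of 27, 2 were higher, 5 were lower and 20 were not called. That is 25.9% called, against 49.7% of all genes. The largest falls were in KCNG3 and KCNS3, silent subunits that form no channel alone and modify KCNB pores. KCNG3 read 1.33 and 1.98 in ES cells, 0.22 and -0.06 in IVDS2, -0.71 and -0.95 in IVDS2-C, 1.01 and 0.51 in IVDS2-P, and -0.78 and -0.90 at IVDS3. The ES arrays were the highest, the periphery came next, and the centre was as low as IVDS3. At IVDS3 KCNG3 fell by 2.49 ± 0.24 (adjusted p = 4.07e-05), or 5.62-fold, although its 2 probe sets differed, at -4.40 and -0.58. The smaller fall in IVDS2-P (-0.89 ± 0.24, adjusted p = 0.044) was lost without ES replicate 2 (adjusted p = 0.212), IVDS2-P replicate 2 (0.273), or either array of IVDS2 (0.0555), IVDS2-C (0.0508) or IVDS3 (0.0717), and on the more variable probe set alone (0.0526).

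KCNS3 declined in steps. It read 0.75 and 1.49 in ES cells, 0.32 and 0.22 in IVDS2, -0.43 and -0.67 in IVDS2-C, -0.13 and 0.13 in IVDS2-P, and -1.20 and -1.13 at IVDS3. Every array of the other groups lay below both ES arrays, and IVDS3 lay below all. It fell by 2.28 ± 0.22 at IVDS3 (adjusted p = 4.16e-05). In whole IVDS2 its fall (-0.85 ± 0.22, adjusted p = 0.0338) was lost without ES replicate 2 (0.11), IVDS2 replicate 1 (0.0996), IVDS2 replicate 2 (0.162) or either IVDS3 array (0.0589). In IVDS2-P its fall (-1.12 ± 0.22, adjusted p = 0.0138) was lost without IVDS2-P replicate 1 (0.0769) or replicate 2 (0.057).

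KCND2, the pore of a fast-inactivating potassium current, was high on the ES arrays alone. It read 2.38 and 1.26 in ES cells, 0.05 and -0.28 in IVDS2, 0.02 and -0.47 in IVDS2-C, 0.24 and -0.30 in IVDS2-P, and -0.02 and -0.20 at IVDS3. The 8 other arrays lay within a narrow band, and neither ES array overlapped it. The difference from ES cells was -1.94 ± 0.34 in IVDS2 (adjusted p = 0.00675), -2.05 ± 0.34 in IVDS2-C (0.00255), -1.85 ± 0.34 in IVDS2-P (0.0109) and -1.93 ± 0.34 at IVDS3 (0.00143). Leaving out IVDS2 replicate 2 ended the IVDS2 call (0.055), and leaving out IVDS2-P replicate 2 ended the IVDS2-P call (0.0976).

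Among the Shaker-type pores, KCNA2 and KCNA3 were higher at IVDS3, and KCNA1 and KCNA4 were lower, KCNA4 with a call that ended without IVDS3 replicate 2 (adjusted p = 0.0657). KCNA3, best known from lymphocytes, read -0.45 and -0.81 in ES cells, -0.61 and -0.74 in IVDS2, 0.05 and 0.49 in IVDS2-C, 0.08 and 0.47 in IVDS2-P, and 0.47 and 0.05 at IVDS3. The values fall into a low pair of groups, ES and IVDS2, and a higher trio that overlap each other. It was 0.89 ± 0.22 higher at IVDS3 (adjusted p = 0.0078), a call lost without ES replicate 2 (0.0562) or IVDS3 replicate 1 (0.0682). In IVDS2-P it was 0.90 ± 0.22 higher (0.0309), lost without ES replicate 2 (0.165) or IVDS2-P replicate 2 (0.211). The 2 probe sets of KCNA3 gave 0.78 and 1.03 in IVDS2-P, and only the larger was called over all probe sets. In IVDS2-C they gave 0.55 and 1.25, again with only the larger called. KCNA2, a neuronal pore, was 0.76 ± 0.18 higher at IVDS3. KCNA3, KCNA2 and KCNA10 are neighbours in the gene order, and KCNA10 was not called.

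Of 11 auxiliary subunits of voltage-gated potassium channels, 1 was higher, 3 were lower and 7 were not called at IVDS3 (36.4% called, against 49.7% of all genes). The riser was KCNIP4, a calcium-binding protein that attaches to KCND pores and changes their inactivation. It read -0.63 and -0.86 in ES cells, -0.31 and -0.29 in IVDS2, 1.88 and 2.68 in IVDS2-C, -0.55 and 0.29 in IVDS2-P, and 1.62 and 1.39 at IVDS3. The central foci and IVDS3 stood apart from the other 3 groups with no overlap. KCNIP4 rose by 2.26 ± 0.30 at IVDS3 (adjusted p = 0.000276) and by 3.03 ± 0.30 in IVDS2-C (adjusted p = 0.000227), the latter 8.15-fold. Its pore partner KCND2 was lower than in ES cells in all 4 groups, by similar amounts. KCNIP4 was not called in IVDS2 or IVDS2-P against ES cells.

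KCNE3, a small membrane protein that partners KCNQ1, had the largest fall among the auxiliary subunits. It read 0.30 and 0.57 in ES cells, 0.09 and 0.12 in IVDS2, -0.09 and -0.34 in IVDS2-C, 0.21 and -0.14 in IVDS2-P, and -0.67 and -0.77 at IVDS3. Both IVDS3 arrays were the lowest of the 10. Its fall at IVDS3 was -1.16 ± 0.15 (adjusted p = 0.000279). KCNQ1 itself was not called at IVDS3. KCNAB3, a cytoplasmic beta subunit, read 0.15 and 0.20 in ES cells, 0.02 and 0.06 in IVDS2, -0.29 and -0.49 in IVDS2-C, -0.02 and 0.03 in IVDS2-P, and -0.75 and -1.05 at IVDS3. It too was lowest at IVDS3, with a difference of -1.08 ± 0.13 from ES cells (adjusted p = 0.000144) and of -0.94 ± 0.13 from IVDS2 (adjusted p = 0.000484).

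Inward rectifiers pass potassium more easily into the cell than out and set the resting voltage. Of 12 measured, 2 were higher, 3 were lower and 7 were not called at IVDS3 (41.7% called, against 49.7% of all genes). KCNJ15 read -0.11 and -0.01 in ES cells, -0.24 and 0.01 in IVDS2, 1.37 and 2.49 in IVDS2-C, -0.07 and -0.39 in IVDS2-P, and 2.17 and 2.17 at IVDS3. The centre and IVDS3 were high and the other 3 groups were low, without overlap. It rose by 2.23 ± 0.30 at IVDS3 (adjusted p = 0.00027) and by 1.99 ± 0.30 in IVDS2-C (adjusted p = 0.00145). KCNJ13, a rectifier of pigment epithelium and choroid plexus, had a smaller rise with the same grouping. Its values were -0.53 and -0.41 in ES cells, -0.20 and -0.22 in IVDS2, 0.44 and 1.38 in IVDS2-C, -0.41 and 0.00 in IVDS2-P, and 0.68 and 0.55 at IVDS3. The rise was 1.09 ± 0.26 at IVDS3 (adjusted p = 0.00771) and 1.38 ± 0.26 in IVDS2-C (adjusted p = 0.00488). In IVDS2-C some of the 3 probe sets of KCNJ13 were called and others were not.

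KCNJ8, a pore subunit of ATP-sensitive potassium channels, was the rectifier with the largest fall. It read 1.58 and 1.14 in ES cells, 0.06 and -0.05 in IVDS2, -0.12 and -0.00 in IVDS2-C, 0.14 and 0.00 in IVDS2-P, and -0.16 and -0.22 at IVDS3. As for KCND2, the ES arrays were high and the 8 others lay close together. Its difference from ES cells was -1.36 ± 0.15 in IVDS2 (adjusted p = 0.000935), -1.43 ± 0.15 in IVDS2-C (0.000287), -1.29 ± 0.15 in IVDS2-P (0.00206) and -1.55 ± 0.15 at IVDS3 (4.82e-05). No array left out ended any of the 4 calls. KCNJ12 (-1.10 ± 0.16, adjusted p = 0.000394), a strong rectifier of muscle, was also lower at IVDS3.

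Channels with paired pore domains carry background potassium currents. Of 11 measured, 1 was higher, 3 were lower and 7 were not called at IVDS3 against ES cells (36.4% called, against 49.7% of all genes). KCNK10, a channel opened by stretch, heat and fatty acids, was called against ES cells in all 3 stage 2 groups and not at IVDS3. It read -1.69 and -2.36 in ES cells, 0.50 and 0.70 in IVDS2, 0.16 and -0.16 in IVDS2-C, 0.96 and 1.35 in IVDS2-P, and -2.59 and -2.01 at IVDS3. All 6 stage 2 arrays lay above all ES and IVDS3 arrays, and those 4 overlapped each other. KCNK10 was 2.62 ± 0.26 higher in IVDS2 (adjusted p = 0.000543), 2.02 ± 0.26 higher in IVDS2-C (0.000741) and 3.18 ± 0.26 higher in IVDS2-P (0.000488) than in ES cells, the last being 9.04-fold. Against IVDS2 it fell by 2.90 ± 0.26 at IVDS3 (adjusted p = 5.2e-05), or 7.49-fold. None of these 4 calls was lost by leaving out an array. Of the 10 genes called in IVDS2 against ES cells, KCNK10 was the 1 that was also called at IVDS3 against IVDS2 in the opposite direction, and 5 were called in the same direction. The same counts were not taken over all genes, so whether channel genes differ in this is not known. Both comparisons also share the IVDS2 arrays.

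KCNK1, a weak background channel, rose at IVDS3 and was lower in the periphery. It read -0.78 and 0.06 in ES cells, -0.06 and -0.40 in IVDS2, 0.12 and 0.84 in IVDS2-C, -1.42 and -1.55 in IVDS2-P, and 1.21 and 1.28 at IVDS3. The IVDS2-P arrays were the lowest and the IVDS3 arrays the highest of the 10. The rise at IVDS3 was 1.60 ± 0.29 (adjusted p = 0.0017), and its 2 probe sets gave 1.41 and 1.79. In IVDS2-P only 1 of the 2 was called against ES cells over all probe sets. The fall in IVDS2-P (-1.12 ± 0.29, adjusted p = 0.0425) was lost without ES replicate 2 (0.207), IVDS2-P replicate 1 (0.115), IVDS2-P replicate 2 (0.208), or either array of IVDS2 (0.0545) or IVDS3 (0.0705). KCNK5, a channel opened by alkaline pH, fell by 0.89 at IVDS3 (adjusted p = 0.000692), a mean of -1.65 and -0.13 over its 2 probe sets.

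**Figure D4:**
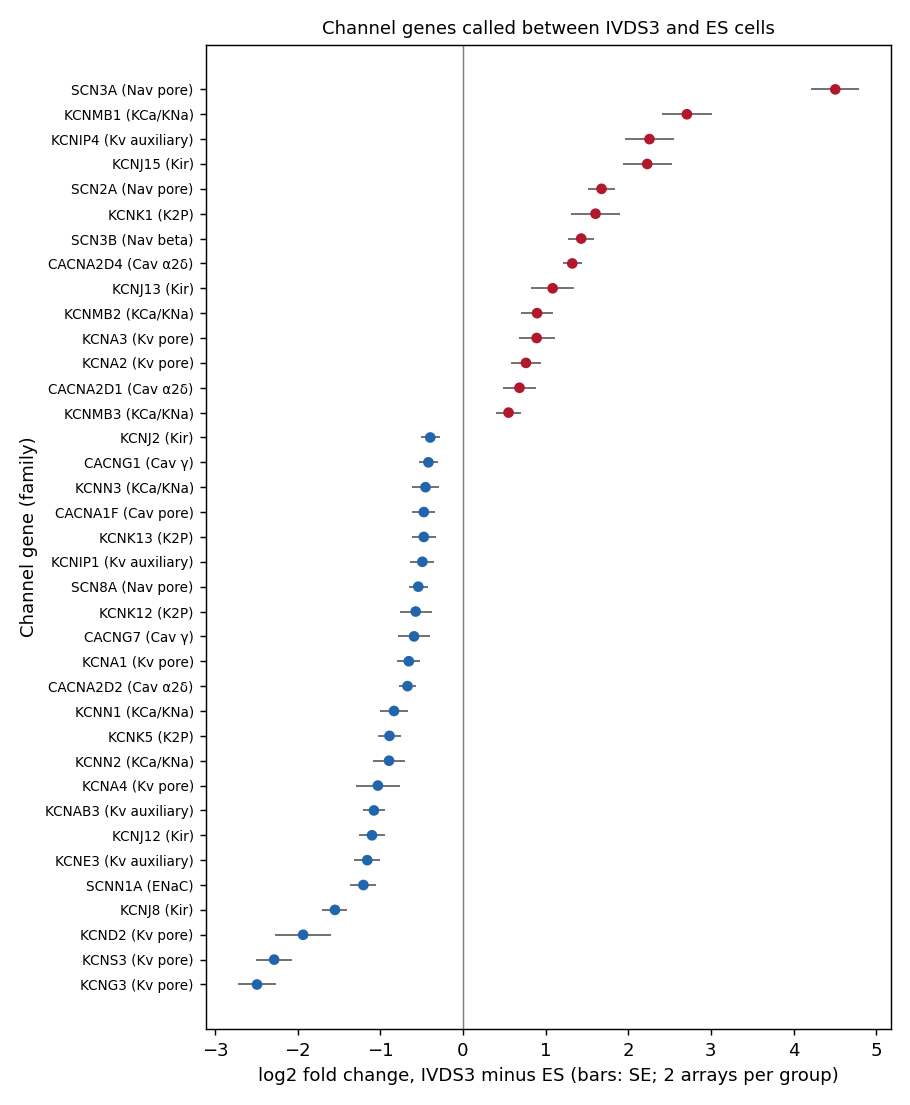
Log2 difference, IVDS3 minus ES, of the channel genes called in that comparison, with bars of 1 SE from the limma fit. SCN3A lies farthest to the right at 4.50 and KCNG3 farthest to the left at -2.49.

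Of 10 genes of calcium- or sodium-activated potassium channels, 3 were higher, 3 were lower and 4 were not called at IVDS3. That is 60% called, against 49.7% of all genes. The 3 higher genes, KCNMB1, KCNMB2 and KCNMB3, are auxiliary beta subunits of the large-conductance channel. The 3 lower genes, KCNN1, KCNN2 and KCNN3, are pores of small-conductance channels. KCNMB3 (0.55 ± 0.15 higher, adjusted p = 0.012) was no longer called without ES replicate 2 (0.0606) or IVDS3 replicate 1 (0.0793). The beta subunit KCNMB4 and the pore KCNN4 were not called, and whether beta subunits and pores differ was not tested. The large-conductance pore itself, KCNMA1, was not called (-0.30 ± 0.17, adjusted p = 0.164), with -0.08 and -0.01 at IVDS3 and 0.16 and 0.37 in ES cells. KCNMB1, known from smooth muscle, read -0.81 and -1.21 in ES cells, -0.07 and 0.24 in IVDS2, 0.07 and 0.78 in IVDS2-C, -1.52 and -0.98 in IVDS2-P, and 1.38 and 2.01 at IVDS3. Both IVDS3 arrays were the highest, and the periphery overlapped ES cells. It rose by 2.71 ± 0.30 at IVDS3 (adjusted p = 9.78e-05), or 6.54-fold. Its rise in IVDS2 (1.10 ± 0.30, adjusted p = 0.0446) did not survive leaving out either ES array (0.0556 and 0.197) or either IVDS2 array (0.0899 and 0.222). In IVDS2-C its rise (1.44 ± 0.30, adjusted p = 0.00756) was lost without IVDS2-C replicate 2 (0.0572). Of 5 measured smooth muscle markers, none was higher and 3 were lower at IVDS3 by limma, and 3 had an unadjusted p under 0.05.

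KCNN1 read 0.43 and 0.99 in ES cells, 0.08 and -0.06 in IVDS2, -0.06 and -0.20 in IVDS2-C, 0.11 and 0.06 in IVDS2-P, and -0.13 and -0.12 at IVDS3. Both ES arrays were the highest. The IVDS2 fall of KCNN1 (-0.70, adjusted p = 0.0279) was lost without ES replicate 2 (0.0779), either IVDS2 array (0.0748 and 0.156) or either IVDS3 array (0.0509), and its IVDS2-P fall (-0.63) without any array but ES replicate 1, with adjusted p of 0.0614 to 0.225.

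KCNN3 was called in opposite directions in 2 groups. It read 0.00 and -0.18 in ES cells, 0.30 and -0.00 in IVDS2, 0.14 and -0.20 in IVDS2-C, 0.77 and 0.86 in IVDS2-P, and -0.38 and -0.70 at IVDS3. The periphery held the 2 highest arrays and IVDS3 the 2 lowest. The rise in IVDS2-P was 0.90 ± 0.17 (adjusted p = 0.011) and was lost without ES replicate 2 (0.0706) or IVDS2-P replicate 2 (0.0898). The fall at IVDS3 (-0.45) was lost without either ES array (0.171 and 0.0637), either IVDS2-P array (0.068) or IVDS3 replicate 2 (0.28). The 4 probe sets of KCNMB4, a neuronal beta subunit, disagreed at IVDS3, where the most extreme were at -2.05 and 0.53 and were called opposite ways, and the mean was not called against ES cells.

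The epithelial sodium channel takes up sodium across the surface of epithelia, and 2 of its subunits were measured. SCNN1A, the alpha subunit that the pore requires, read 0.59 and 0.97 in ES cells, 0.11 and 0.05 in IVDS2, -0.45 and -0.36 in IVDS2-C, 0.24 and -0.07 in IVDS2-P, and -0.34 and -0.51 at IVDS3. The ES arrays were the highest, and the centre and IVDS3 the lowest. It fell by 1.20 ± 0.16 at IVDS3 (adjusted p = 0.00024) and by 1.18 ± 0.16 in IVDS2-C (adjusted p = 0.000822). In IVDS2, IVDS2-C and IVDS2-P some of the 3 probe sets of SCNN1A were called against ES cells and others were not. In IVDS2 its fall (-0.70, adjusted p = 0.0201) was lost without ES replicate 2 (0.0912), IVDS2 replicate 1 (0.0722) or IVDS2 replicate 2 (0.109). In IVDS2-P its fall (-0.70) was lost without ES replicate 2 (0.118) or IVDS2-P replicate 2 (0.184). SCNN1B, the beta subunit, was not called (-0.13 ± 0.12, adjusted p = 0.386). Simple epithelium markers went the other way, with 8 of 9 higher and 1 lower at IVDS3, and medians of 0.66 and 1.00 at IVDS3 against -1.22 and -1.01 in ES cells. Their part in the SCNN1A result was not tested.

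Among the voltage-gated calcium channels, 6 of 17 genes were called at IVDS3, where 49.7% of all genes were called. Differences between the subunit types, each of few genes, were not tested. The alpha-2-delta subunits bring the pore to the membrane. All 3 measured were called at IVDS3, 2 higher and 1 lower, while none of the 3 beta subunits was called by limma (1 had an unadjusted p under 0.05), and 1 of 6 pore subunits and 2 of 5 gamma subunits were lower. CACNA2D4 read -0.61 and -0.50 in ES cells, 0.10 and -0.13 in IVDS2, 0.05 and 0.05 in IVDS2-C, -0.01 and 0.02 in IVDS2-P, and 0.71 and 0.83 at IVDS3. The ES arrays lay below every other array and the IVDS3 arrays above every other. It was 1.32 ± 0.12 higher at IVDS3 (adjusted p = 2.68e-05), with 1.95 and 0.70 on its 2 probe sets. In each stage 2 group only 1 of the 2 was called against ES cells over all probe sets. The rises in IVDS2 (0.54 ± 0.12, adjusted p = 0.0161) and IVDS2-P (0.56) were lost without IVDS2 replicate 1 (0.0973), and without IVDS2-P replicate 1 (0.0703) or replicate 2 (0.121).

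CACNA2D2 went the other way and was lowest in the central foci. It read 0.69 and 0.71 in ES cells, -0.14 and -0.15 in IVDS2, -0.36 and -0.30 in IVDS2-C, 0.17 and 0.02 in IVDS2-P, and 0.09 and -0.02 at IVDS3. Both ES arrays lay above all others. Its difference from ES cells was -0.85 ± 0.10 in IVDS2 (adjusted p = 0.0013), -1.03 ± 0.10 in IVDS2-C, -0.61 ± 0.10 in IVDS2-P and -0.67 ± 0.10 at IVDS3. The IVDS2-P call was lost without IVDS2-P replicate 2 (0.0847). CACNA2D1 rose by 0.68 ± 0.20 at IVDS3 (adjusted p = 0.0184), a call lost without ES replicate 2 (0.0831) or IVDS3 replicate 1 (0.143).

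The pores through which calcium passes had 1 call among 6. CACNA1F, the retinal L-type pore, read 0.12 and 0.44 in ES cells, 0.22 and -0.00 in IVDS2, 0.00 and -0.02 in IVDS2-C, 0.07 and -0.11 in IVDS2-P, and -0.23 and -0.15 at IVDS3. IVDS3 lay lowest, with a difference of -0.47 ± 0.14 from ES cells (adjusted p = 0.0203), a call lost without ES replicate 2 (0.109), IVDS3 replicate 1 (0.102) or IVDS3 replicate 2 (0.0595). CACNA1B (-0.28 ± 0.13), CACNA1C (-0.40 ± 0.23), CACNA1D (0.05 ± 0.16), CACNA1E (-0.30 ± 0.15) and CACNA1I (-0.32 ± 0.15), pores of neurons, heart and endocrine cells, were not called. CACNG7, a gamma subunit that also serves glutamate receptors, read 0.18 and 0.58 in ES cells, 0.29 and -0.13 in IVDS2, 0.06 and -0.09 in IVDS2-C, 0.28 and -0.06 in IVDS2-P, and -0.19 and -0.24 at IVDS3. Its fall (-0.59 ± 0.19, adjusted p = 0.0285) was lost without ES replicate 2 (0.169), IVDS3 replicate 1 (0.0887) or IVDS3 replicate 2 (0.111). CACNG1, the other gamma subunit called, was also lost without ES replicate 2 (0.0519) or IVDS3 replicate 2 (0.094), and on the 4 arrays alone (0.0515). The mean of CACNB3 was not called, but its 2 probe sets were called opposite ways at IVDS3 (-0.47 and 0.69).

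Within stage 2 colonies the comparison of IVDS2-C with IVDS2-P asks how the central foci differ from the cells around them. Of the channel genes, 6 were higher in the centre: KCNIP4, KCNJ15, KCNK1, KCNMB1, KCNJ13 and SCN2A. A further 7 were lower: KCNG3, KCNK10, KCNA4, KCNN3, SCN7A, KCNK5 and CACNA2D2. KCNIP4 was 2.41 ± 0.30 higher (adjusted p = 0.0023), KCNJ15 2.16 ± 0.30 higher (0.00336) and KCNK1 1.97 ± 0.29 higher (0.00472), while KCNG3 was lower, at -1.59 ± 0.24 (0.00469). In these 4 genes the arrays of the 2 regions did not overlap, and leaving out any 1 array ended none of the calls. Over all probe sets, however, KCNG3, KCNJ13 and KCNK5 each had some probe sets called between the regions and others not. The arrays of the 2 regions did not overlap in 54 of the 98 channel genes, against 61% of all genes.

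The other 9 calls between centre and periphery rested on single arrays. KCNMB1 was 1.67 ± 0.30 higher (adjusted p = 0.0109), lost without IVDS2-C replicate 2 (0.0804) or IVDS2-P replicate 1 (0.092). KCNK10 (-1.15 ± 0.26, 0.0293) was lost without IVDS2-C replicate 2 (0.21), IVDS2-P replicate 1 (0.0763) or IVDS2-P replicate 2 (0.149). KCNN3 (-0.84 ± 0.17, 0.0169) was lost without IVDS2-C replicate 2 (0.143), IVDS2-P replicate 1 (0.0835) or IVDS2-P replicate 2 (0.0933). KCNA4, an inactivating Shaker-type pore, read 1.08 and 0.22 in ES cells, 0.20 and -0.20 in IVDS2, -0.27 and -0.62 in IVDS2-C, 0.57 and 0.59 in IVDS2-P, and -0.26 and -0.49 at IVDS3. The centre arrays lay below both periphery arrays. Its difference (-1.02 ± 0.26, 0.0425) was lost without IVDS2-C replicate 2 (0.298), IVDS2-P replicate 1 (0.17), IVDS2-P replicate 2 (0.15), or either array of IVDS2 (0.0517) or IVDS3 (0.0673), and with each array centred on its median (0.0541). KCNJ13 (1.11 ± 0.26, adjusted p = 0.0326) was lost without IVDS2-C replicate 2 (0.146), IVDS2-P replicate 1 (0.192), IVDS2-P replicate 2 (0.0651) or either IVDS3 array (0.0571). SCN2A (0.65 ± 0.16, 0.0376) was lost without IVDS2-C replicate 2 (0.31), IVDS2-P replicate 1 (0.127), IVDS2-P replicate 2 (0.167) or either IVDS2 array (0.0524). KCNK5 (-0.59 ± 0.14, 0.0327) did not hold without either array of the centre (0.0547 and 0.229), of the periphery (0.157 and 0.123) or of IVDS3 (0.0514). The differences in SCN7A (-0.61 ± 0.16, 0.0495) and CACNA2D2 (-0.42 ± 0.10, 0.0377) were the least steady. That of SCN7A was lost without any array but IVDS2-P replicate 2, with adjusted p of 0.0527 to 0.332, and that of CACNA2D2 without any array of IVDS2, IVDS2-C, IVDS2-P or IVDS3, with 0.0587 to 0.225.

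Counted over the set, without IVDS2-C replicate 2 or IVDS2-P replicate 1 there were 3 channel genes higher in the centre and 1 lower. Lower calls numbered 4 without IVDS2 replicate 1, IVDS2 replicate 2 or IVDS2-C replicate 1, 3 without either IVDS3 array, and 2 without IVDS2-P replicate 2. 

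Epithelial and pluripotency markers differed between the same regions. In IVDS2-C, 8 of 9 simple epithelium markers and 4 of 8 stratified epithelium markers were higher than in IVDS2-P, and 5 of 7 pluripotency markers were lower. Among all genes, 5.64% were higher and 3.95% lower. The simple epithelium medians were 0.06 and 0.33 in IVDS2-C against -1.45 and -0.96 in IVDS2-P, and the pluripotency medians were -0.29 and -1.48 in IVDS2-C against 1.27 and 0.90 in IVDS2-P. Of the 6 neuron markers, none was called between centre and periphery by limma, and 3 had an unadjusted p under 0.05. The part of these cell types in the channel differences was not tested.

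**Figure D5:**
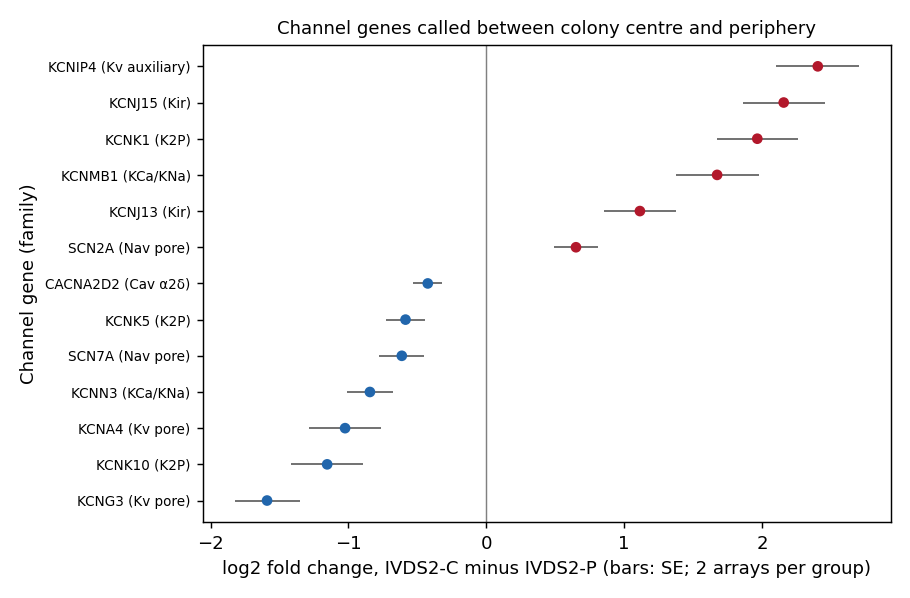
Log2 difference, IVDS2-C minus IVDS2-P, of the 13 channel genes called between the 2 regions, with bars of 1 SE from the limma fit. KCNIP4 lies farthest right at 2.41 and KCNG3 farthest left at -1.59.

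Between the stages, IVDS3 against IVDS2, the largest rises were in SCN3A, KCNJ15, KCNIP4 and SCN2A. SCN3A was 3.90 higher (14.9-fold, adjusted p = 2.01e-05), KCNJ15 2.28 higher (0.000377), KCNIP4 1.81 higher (0.00144) and SCN2A 1.70 higher (6.51e-05), each with no overlap between the arrays of the 2 stages. The largest falls were in KCNK10, KCNS3 (-1.44, 0.000855), KCNAB3 (-0.94) and KCNG3 (-0.92 ± 0.24, 0.0134). The KCNG3 call was lost without IVDS2 replicate 1 (0.0811), IVDS3 replicate 1 (0.0513) or IVDS3 replicate 2 (0.0725). CACNB2, a cytoplasmic beta subunit of calcium channels, was lower (-0.63 ± 0.19, 0.0287), lost without IVDS2 replicate 1 (0.184), IVDS3 replicate 1 (0.121) or IVDS3 replicate 2 (0.0917). Of the 31 calls, 17 held whichever array was left out. The 14 higher genes became 9 without IVDS2 replicate 2 or IVDS3 replicate 1, and the 17 lower genes became 8 without IVDS3 replicate 2, 9 without IVDS2 replicate 1 and 11 without IVDS3 replicate 1.

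Genes that work beside these channels were counted by list. Of 19 measured proteins that bind or position channels, 6 were higher and 4 lower at IVDS3 than in ES cells, including LGI1 (1.96 higher), FGF12 (-1.91) and AKAP9 (1.50 higher). FGF12 binds the tail of voltage-gated sodium channels. Of 15 measured regulators of the epithelial sodium channel, 5 were higher and 2 lower, led by NEDD4 (3.21 higher), a ubiquitin ligase, and ST14 (1.66 higher), a membrane protease, with SGK1 (-1.24), a kinase that raises channel abundance, among the lower. In IVDS2-C, 5 of these 15 regulators were higher than in IVDS2-P and none was lower by limma, where 5.64% of all genes were higher and 3.95% lower, and 8 of the 15 had an unadjusted p under 0.05. Of 10 measured sodium-potassium pump and FXYD genes, 4 were higher and 2 lower at IVDS3, with FXYD3 4.59 ± 0.22 higher. Of 21 measured genes of calcium stores and pumps, 7 were higher and 4 lower, among them TMCO1 (-1.71), RYR2 (-1.14) and ATP2B4 (1.13 higher). For comparison, 49.7% of all genes were called at IVDS3.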

How the data were processed

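The authors' deposited log2 values, made with RMA per the submitters' processing notes, cover 44294 probe sets on 10 arrays. The log base is not given in the sources used here and was inferred from the range of the values. The deposited probe sets were already centred, with 0 medians over the arrays beyond 1e-05. The 84 control probe sets were left out. Of the 44210 tested, 22802 had 1 gene, 316 several and 21092 none in the platform annotation. Probe sets with the same 1 gene were averaged, giving 13191 genes. Groups were fitted as means with limma 3.58.1 in R 4.3.3 (residual degrees of freedom 5, prior 3.94), with Benjamini-Hochberg adjustment per comparison. Of the 98 symbols, 95 were found by gene number under the same symbol in the RefSeq table. No sequence is shown.

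Simulated data had 100 genes changed at each fold among 13191. For IVDS3 against ES, 90% of 2-fold and 98% of 4-fold changes were recovered and 4.57% of calls were false. For IVDS2-C against IVDS2-P these were 84%, 100% and 5.15%. In the real data 49.7% of all genes were called at IVDS3 against ES cells, so these rates need not carry over. Full array values were given for the 6 largest called rises and falls at IVDS3, the 4 largest of each other comparison and the largest called member of each family. The members, lists and this rule were chosen with earlier results of these data known. Alternatives were leaving out each array, only the arrays compared, centring each array, the most variable probe set and a replicate block.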

Additional observations from a re-analysis of the deposited data

Results flagged for a closer look

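In 13 channel genes (13.3%, against 9.59% of all genes) the effect against ES cells differed between the central foci and the periphery of stage 2 colonies. The test was that of IVDS2-C minus IVDS2-P in the limma fit. Only the calls of KCNIP4, KCNJ15, KCNK1 and KCNG3 held whichever array was left out. The log2 difference was 2.41 for KCNIP4, 2.16 for KCNJ15, 1.97 for KCNK1, 1.67 for KCNMB1, 1.11 for KCNJ13 and 0.65 for SCN2A. It was -1.59 for KCNG3, -1.15 for KCNK10, -1.02 for KCNA4, -0.84 for KCNN3, -0.61 for SCN7A, -0.59 for KCNK5 and -0.42 for CACNA2D2. With 2 arrays a group, no array could be tested as an outlier within its group.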

How the results depend on the processing

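No called channel gene changed direction under any alternative tried. Leaving out 1 array at a time gave 11 to 14 channel genes higher and 15 to 36 lower at IVDS3 than in ES cells, 6 to 10 and 9 to 25 in IVDS2-C, 2 to 5 and 1 to 19 in IVDS2-P, and 1 to 3 and 3 to 12 in IVDS2. It gave 3 to 7 higher and 1 to 8 lower in IVDS2-C than in IVDS2-P, and 9 to 15 higher and 8 to 18 lower at IVDS3 than at IVDS2. The lone array left in a group was assumed to vary like those of the other groups. Fits on only the 4 arrays of a comparison called 4 genes lower in IVDS2, 7 in IVDS2-C and 3 in IVDS2-P than in ES cells. Taking for each gene its most variable probe set called 5 genes higher in IVDS2, and the cause was not tested. Centring each array on its median gave 16 higher and 13 lower at IVDS3 against IVDS2, and 16 higher and 19 lower against ES cells. The array numbers were not taken to pair the samples, since no label says so and the correlation of same-numbered deviations exceeded 0.1 in 5 of 10 pairs of groups, with a range of -0.21 to 0.28. The highest, 0.28, was between IVDS2 and IVDS2-P, and a batch shared by some groups was not tested. With the replicate block the counts were 14 higher and 24 lower at IVDS3, 10 and 16 in IVDS2-C, 5 and 7 in IVDS2-P and 3 and 7 in IVDS2 against ES cells. They were 6 and 7 for centre against periphery and 14 and 17 for IVDS3 against IVDS2. The block ended 5 calls, those of KCNG3 (adjusted p = 0.0532) and KCNN1 (0.0602) in IVDS2-P, KCNQ1 (0.0515) and KCNK17 (0.0543) in IVDS2-C and CACNG1 (0.0604) at IVDS3 against IVDS2. The number of arrays, 2 a group, limits the precision of every value, and centred values show no signal over background.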

Other observations

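Ion channels of other families were called at IVDS3 against ES cells about as often as all genes, 49.7% of which were called. Of 28 measured cation channels of other families, 5 were higher and 7 lower (42.9% called), led by TRPM1 (3.82 ± 0.15 higher, SE), a channel of melanocytes and retinal bipolar cells, with PIEZO1 (1.85 higher), a channel opened by stretch, and PKD2 (-1.51), the polycystin channel. Of 26 measured chloride channel genes, 9 were higher and 5 lower (53.8% called), led by ANO5 (4.29 ± 0.44 higher), CLCA2 (2.65 higher) and CLIC3 (2.29 higher). Between IVDS2-C and IVDS2-P, 2 cation channel genes were higher and 1 lower, and 1 chloride channel gene was higher, where 9.59% of all genes were called. These lists were chosen with earlier results of these data known.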
